A study of Homo sapiens with 9 samples.

Results

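The inflammatory caspase cluster of human chromosome 11 was followed in 9 RNA-seq libraries of U937, an established human monocytic cell line. The cluster was taken as 6 of the 20265 genes of the count table. Their Ensembl identifiers carry the symbols CASP4, CASP1, CARD16, CASP5, CARD17 and CARD18. The cluster was chosen with earlier results of these data known. Calls of its genes, set beside the shares over all genes, therefore describe it and are not independent evidence. The libraries fall into 3 groups of 3. One group comes from cells labelled IRF2KO_pIRF2, which are IRF2 knockout cells labelled with an added pIRF2. The others come from IRF2KO cells, which are knockout cells with no such addition, and from WT cells. All are U937-Cas9 cells, so the gene for the Cas9 nuclease is shared by every group, WT included. What pIRF2 encodes, how IRF2 was edited and whether a line was 1 clone are not in the labels. Nor do they say that replicates were separate cultures, so p-values measure the spread between these samples alone, and that spread may be technical. No agent, dose or time is given for any group.

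Inflammatory caspases are cysteine proteases of innate immunity. CASP1 is activated in inflammasomes, matures the precursors of interleukin-1 beta and interleukin-18 and cleaves gasdermin D, the protein whose freed fragment makes pores in the plasma membrane in the lytic death called pyroptosis. CASP4 and its close relative CASP5 bind lipopolysaccharide in the cytosol and also cleave gasdermin D. CARD16, CARD17 and CARD18 encode short proteins that consist mainly of a caspase recruitment domain (CARD) like that of CASP1 and carry no protease domain. IRF2 is a DNA-binding protein of the interferon regulatory factor family.

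In GENCODE 29 on GRCh38, the build of the files, all 6 genes lie on the minus strand within 588832 bases. CASP4 (ENSG00000196954) spans chr11:104942866-104969436, CASP5 (ENSG00000137757) chr11:104994235-105023168 and CASP1 (ENSG00000137752) chr11:105025443-105035250. CARD16 (ENSG00000204397) spans chr11:105041326-105101431, CARD17 (ENSG00000255221) chr11:105092469-105101431 and CARD18 (ENSG00000255501) chr11:105137721-105531697. The annotated CARD16 gene reaches over CARD17, and 24 of its 1688 exon bases also belong to CARD17. No exon base of CASP4 or CASP1 is shared with another gene on the same coordinates.

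The CARD exons of CASP1 and CARD16 are shown because their likeness bears on how reads of these neighbours can be told apart. Both are coding exons of 267 bases, printed from the GENCODE transcripts in the sense of the gene, with the bases that differ in capitals.
CASP1 CARD exon, chr11:105034208-105034474, minus strand: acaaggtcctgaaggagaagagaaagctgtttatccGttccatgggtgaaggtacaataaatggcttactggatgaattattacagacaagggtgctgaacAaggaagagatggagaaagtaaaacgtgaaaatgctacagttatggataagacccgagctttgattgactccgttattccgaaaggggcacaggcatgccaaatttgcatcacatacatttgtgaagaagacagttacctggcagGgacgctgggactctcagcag
CARD16 CARD exon, chr11:105044392-105044658, minus strand: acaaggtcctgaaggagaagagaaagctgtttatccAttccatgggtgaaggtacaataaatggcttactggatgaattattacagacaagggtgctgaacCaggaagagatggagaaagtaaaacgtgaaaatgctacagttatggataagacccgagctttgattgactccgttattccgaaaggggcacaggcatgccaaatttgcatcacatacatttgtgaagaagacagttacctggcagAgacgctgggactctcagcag
The exons were identical at 264 of 267 positions (98.9%). Counted from the 5′ end of the exon, with the CASP1 base first, the differences are G37A, A102C and G247A, and the longest stretch without one is 144 bases. The matching exon of CARD17 had 92.5% identity to that of CASP1, and the exon of CARD18 had 65.4%. The CARD exon of CASP4 was 73.4% identical to that of CASP5 and 51.2% to that of CASP1. Over all annotated transcripts, 10.6% of the 50-base words of CARD16 (180 of 1706) also occurred in CASP1, against 4.37% of the 50-base words of CASP1 that occurred in another gene and 0.198% of those of CASP4. At 100 bases the shares were 3.05% for CARD16, 1.16% for CASP1 and 0 for CASP4. Neither the read length nor the handling of reads that match more than 1 place is given in the sources used here, so the split of counts between CASP1 and CARD16 is uncertain, while CASP4 is little touched.

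Library totals ranged from 14824907 to 23108288 counts, and 11517 genes passed a filter on low counts and were tested. Mitochondrially encoded genes took 17.3% to 18% of counts in the libraries labelled IRF2KO_pIRF2, 12.2% to 18.8% in IRF2KO libraries and 12.7% to 17.1% in WT libraries. WT replicate 1 and IRF2KO replicate 2 lay at opposite ends of the first principal component, so the tests were repeated without them. All 10 markers of the monocytic line were detected in every group, with a summed level of 1117 to 1169 CPM (counts scaled to library size) in libraries labelled IRF2KO_pIRF2, 1240 to 1380 CPM in IRF2KO libraries and 1055 to 1168 CPM in WT libraries. LYZ and CD4 took most of this sum, with means of 546 and 227 CPM in WT libraries. The highest library stood at 0.514 CPM for MPO, which did not pass the filter, at 1.34 CPM for CSF1R and at 2.57 CPM for ITGAM. Of the defining markers of other cell types, CD3D, CD8A, MS4A1, HBA1, HBB, PF4, EPCAM and COL1A2 had 0 counts in all 9 libraries. NKG7 carried nearly all of the T and NK cell list, whose 4 genes summed to 325 to 342, 318 to 452 and 289 to 356 CPM in libraries labelled IRF2KO_pIRF2, IRF2KO and WT, and the 4 B cell markers summed to 17.7 to 19.2, 19.6 to 30.01 and 13.7 to 19.0 CPM in the same order of groups. Erythroid and megakaryocyte markers stayed at or below 0.215 CPM in sum, and epithelial and fibroblast markers at or below 2.71 CPM. The part of these marker levels in the results was not tested. IRF2 itself stood at 17.3 ± 1.75 CPM in libraries labelled IRF2KO_pIRF2, 24.95 ± 1.26 CPM in IRF2KO libraries and 40.1 ± 3.60 CPM in WT libraries (SD, n = 3 each). It was lower in IRF2KO than in WT (log2 fold change -0.68 ± 0.13 SE, edgeR quasi-likelihood test with Benjamini-Hochberg adjustment, adjusted p = 0.043), a call lost in 10 of 17 alternatives. No rise accompanied the label pIRF2 (-0.53 ± 0.13 against IRF2KO, edgeR adjusted p = 0.24; DESeq2 0.023), and the direction of each change in that group depends on the label being right.

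Of the 6 genes, CASP4, CASP1 and CARD16 had counts and were tested. CASP4 and CASP1 had counts in every library and CARD16 in those of 2 groups. Each of the 3 was highest in WT libraries, intermediate in libraries labelled IRF2KO_pIRF2 and lowest in IRF2KO libraries, and for none of them did any pair of groups overlap. Over all tested genes, 1.5% had no overlap between any pair of groups, and 0.564% had none with the same order of groups. CASP5, CARD17 and CARD18 had 0 counts in all 9 libraries, which allows up to 0.129 to 0.196 CPM in a single library when 3 counts are taken as the limit of detection. Such limits and the intervals given here cover counting error only. In bulk RNA, fewer cells expressing a gene and less RNA per cell cannot be told apart.

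**Figure D1:**
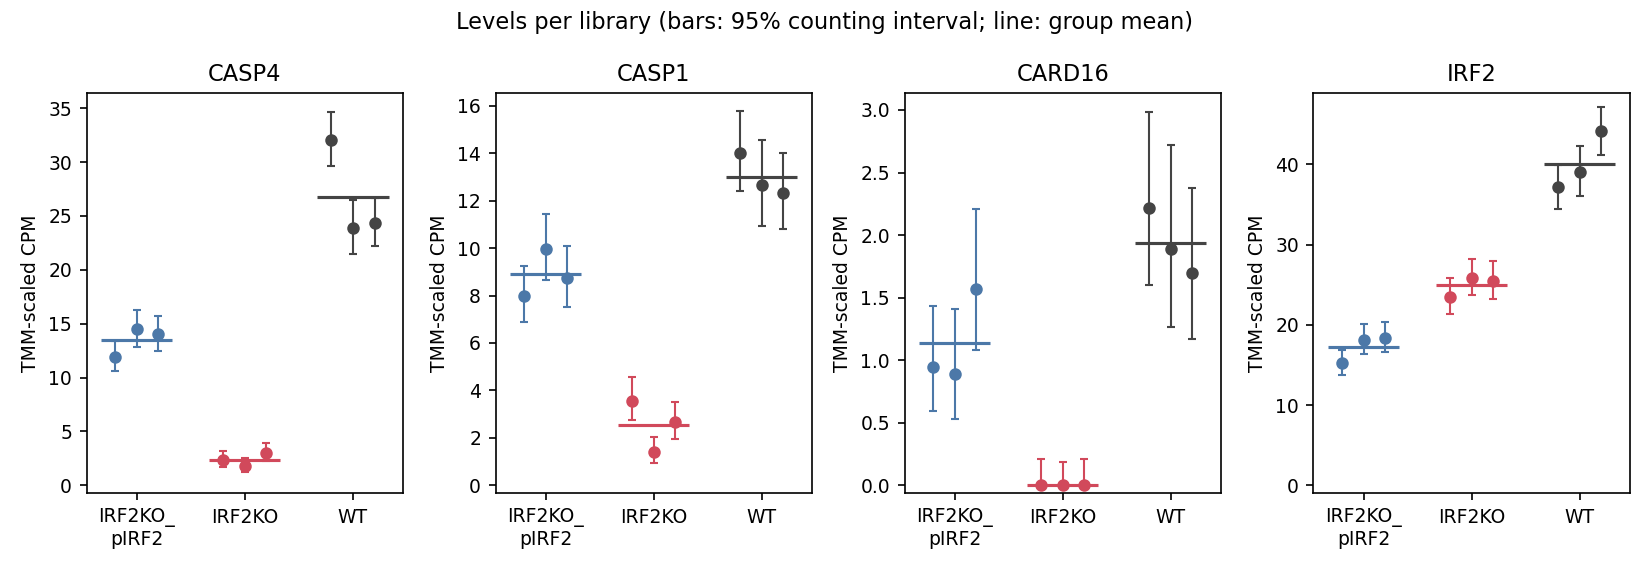
Levels of CASP4, CASP1, CARD16 and IRF2 in each library, in CPM scaled with TMM factors (vertical axes), for the groups labelled IRF2KO_pIRF2, IRF2KO and WT. Points are libraries (n = 3 per group), bars are 95% intervals of counting error within a library, and lines are group means. The 3 IRF2KO libraries lie below all others for CASP4, CASP1 and CARD16, and those of CARD16 lie at 0. For IRF2 the libraries labelled IRF2KO_pIRF2 lie lowest.

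CASP4, the caspase that senses cytosolic lipopolysaccharide, had 41, 36 and 53 counts in IRF2KO libraries, against 623, 366 and 474 counts in WT libraries. Scaled to library size these were 2.32, 1.82 and 2.99 CPM in IRF2KO libraries and 32.1, 23.9 and 24.3 CPM in WT libraries. The lowest WT library thus lay far above the highest IRF2KO library, and each IRF2KO library held 6.81% to 11.2% of the WT mean. CASP4 fell 11.3-fold in IRF2KO (log2 fold change -3.50 ± 0.21 SE), the third smallest p-value among all tested genes (edgeR quasi-likelihood test with Benjamini-Hochberg adjustment, adjusted p = 4.3e-06). CASP1, the inflammasome protease, had 63, 28 and 47 counts in IRF2KO libraries, against 272, 194 and 240 counts in WT libraries. Its levels were 3.57, 1.42 and 2.65 CPM in IRF2KO libraries and 14.0, 12.7 and 12.3 CPM in WT libraries. The WT libraries of CASP1 lay close together (coefficient of variation 6.84%), while the IRF2KO libraries were spread more widely (42.4%), with replicate 2 lowest. CASP1 fell 5.14-fold (-2.36 ± 0.25, edgeR adjusted p = 5.6e-04). CARD16, the short CARD protein next to CASP1, had 0 counts in each of the 3 IRF2KO libraries, against 43, 29 and 33 counts in WT libraries (2.21, 1.89 and 1.69 CPM). Taking 3 counts over the IRF2KO group as the limit and the WT counts as exact, CARD16 was at least 35.6-fold lower in IRF2KO (edgeR adjusted p = 4.6e-04). All 3 tested genes of the cluster were called lower in IRF2KO, where 0.417% of all tested genes were called, 0.365% lower and 0.0521% higher, and DESeq2 and limma-voom called the same 3, with 0.888% and 0.408% of all genes called. The groups did not overlap for 17.2% of all tested genes. Because the cluster was chosen with earlier results known, 3 of 3 beside these shares is a description. Leaving out any single library, or both WT replicate 1 and IRF2KO replicate 2, kept these 3 calls.

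With CARD16 counts added to those of CASP1, the summed level fell by 2.56 on the log2 scale in IRF2KO (edgeR adjusted p = 2.6e-04), a fall as large as that of CASP1 alone. CARD16 made up 0 of 63, 0 of 28 and 0 of 47 of the joint counts of the pair in IRF2KO replicates 1 to 3, which allows shares of up to 4.76%, 10.7% and 6.38% at 3 counts, and up to 5.69%, 12.3% and 7.55% by the exact Clopper-Pearson 95% interval. In WT libraries it made up 13.7%, 13% and 12.1%. Pooled over libraries, CARD16 held 0 of 138 joint counts in IRF2KO, with an upper exact Clopper-Pearson 95% limit of 2.64%, against 105 of 811 (12.9%, 10.7% to 15.5%) in WT. The groups did not overlap, and the exact two-sided permutation test gave p = 0.1, the smallest that 3 against 3 libraries allow (0.15 adjusted over 3 comparisons).

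The libraries labelled IRF2KO_pIRF2 were next set against IRF2KO libraries, by their labels alone, since counts at IRF2 do not show that pIRF2 was present. CASP4 had 278, 292 and 294 counts (11.9, 14.5 and 14.0 CPM) in these libraries, against 2.32, 1.82 and 2.99 CPM in IRF2KO libraries. All 3 labelled libraries lay above every IRF2KO library and close to one another. CASP4 was 5.68-fold higher (log2 fold change 2.505 ± 0.21 SE, edgeR quasi-likelihood test with Benjamini-Hochberg adjustment, adjusted p = 1.7e-04). CASP1 had 186, 201 and 183 counts (7.99, 9.97 and 8.72 CPM), against 3.57, 1.42 and 2.65 CPM in IRF2KO libraries. It was 3.51-fold higher (1.81 ± 0.25, edgeR adjusted p = 0.0067). This call was lost without IRF2KO replicate 3 (1.85, edgeR adjusted p = 0.056) and without replicate 2 labelled IRF2KO_pIRF2 (1.72, edgeR adjusted p = 0.057), with nearly the same fold. CARD16 had 22, 18 and 33 counts (0.945, 0.892 and 1.57 CPM) in the labelled libraries, against 0 in the 3 IRF2KO libraries. Against the limit of 3 counts over the IRF2KO group, with the labelled counts taken as exact, it was at least 20.8-fold higher (edgeR adjusted p = 0.0027). All 3 tested genes were called higher, where 0.365% of all tested genes were called, 0.339% higher and 0.026% lower. DESeq2 and limma-voom also called all 3, with 0.454% and 0.391% of all genes called, and the groups did not overlap for 22.6% of all tested genes. This comparison and that of IRF2KO with WT share the IRF2KO libraries and are not independent of one another.

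Against WT, the libraries labelled IRF2KO_pIRF2 held less of each gene. CASP4 averaged 13.5 ± 1.35 CPM in the labelled libraries and 26.8 ± 4.604 CPM in WT libraries (SD, n = 3 each), which is 50.3% of the WT mean, and the highest labelled library stood at 14.5 CPM against 23.9 CPM in the lowest WT library. CASP1 averaged 8.89 ± 0.9995 CPM in the labelled libraries and 13 ± 0.889 CPM in WT libraries, or 68.4% of WT. CARD16 averaged 1.14 ± 0.378 CPM in the labelled libraries and 1.93 ± 0.262 CPM in WT libraries, or 58.8% of WT. Its nearest libraries had 33 counts each and lay well within counting error of one another. They stood at 1.57 CPM (95% counting interval 1.08 to 2.21) in the labelled group and 1.69 CPM (1.17 to 2.38) in WT. For every one of the 3 genes the groups were apart, as they were for 11.6% of all tested genes in this comparison. None of the 3 passed the test over all genes, where 0.0781% were called, 0.0434% lower and 0.0347% higher. The log2 fold changes were -0.99 ± 0.18 for CASP4 (edgeR quasi-likelihood test, Benjamini-Hochberg adjusted p = 0.091), -0.55 ± 0.23 for CASP1 and -0.77 ± 0.28 for CARD16 (edgeR adjusted p = 1 for both). All 3 had an unadjusted edgeR p under 0.05, as had 3.92% of all tested genes. With the mitochondrial share as a term the log2 fold changes were -0.91 ± 0.21 for CASP4, -0.26 ± 0.22 for CASP1 and -0.63 ± 0.42 for CARD16. DESeq2 called 1 of the 3 and 0.307% of all genes, and limma-voom called 0 of the 3 and 0.104% of all genes. CASP4 was the gene at the edge: it was called by DESeq2 (adjusted p = 1.2e-04), with no filter on low counts (edgeR 0.038), with only these 2 groups in the fit (edgeR 0.030), without IRF2KO replicate 2 (edgeR 0.010) and without both end libraries (edgeR 0.0049), and its adjusted p ran up to 0.60 in the other settings.

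The levels of CASP4 and CASP1 were also set against each other within each library. The ratio of CASP4 to CASP1 counts within a library does not depend on scaling, though it is not a ratio of transcript numbers because the genes differ in length. It was 1.49, 1.45 and 1.61 in libraries labelled IRF2KO_pIRF2, 0.651, 1.29 and 1.13 in IRF2KO libraries and 2.29, 1.89 and 1.98 in WT libraries. WT libraries all lay above the labelled libraries, and these above all IRF2KO libraries. On the log2 scale the ratio averaged -0.03 ± 0.52 in IRF2KO and 1.03 ± 0.15 in WT (SD, n = 3 each), a difference of -1.06. It averaged 0.60 ± 0.07 in the labelled libraries, a difference of 0.63 from IRF2KO and of -0.43 from WT. Each of these 3 differences gave p = 0.1 in an exact two-sided permutation test, the smallest p the design allows (0.1 adjusted over the 3), so none can pass a threshold of 0.05. IRF2KO replicate 1 had the lowest ratio. Without it the difference was -0.77 between IRF2KO and WT, and 0.34 between the labelled libraries and IRF2KO. CARD16 took 10.6%, 8.22% and 15.3% of the joint counts of CASP1 and CARD16 in the labelled libraries, pooled 73 of 643 (11.4%, exact 95% interval 9.01% to 14.1%). The means were 11.4 ± 3.59% in the labelled libraries and 12.9 ± 0.785% in WT libraries (exact permutation p = 0.6, 0.6 adjusted over 3), with overlapping groups, and the small difference turned to the other side without replicate 2 labelled IRF2KO_pIRF2.

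**Figure D2:**
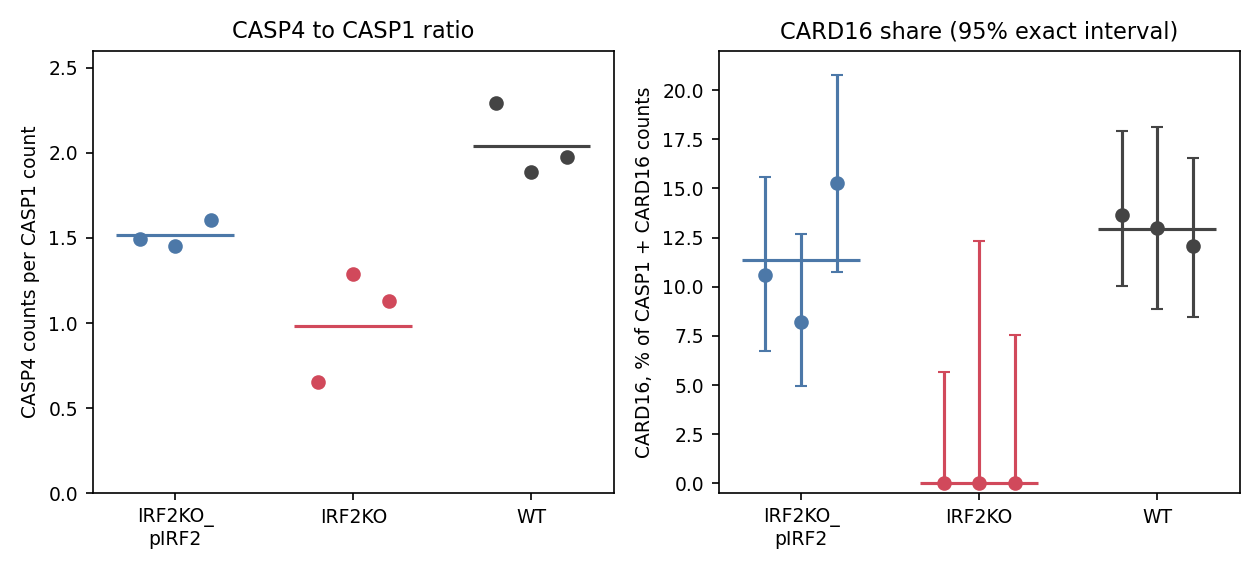
Ratio of CASP4 to CASP1 counts and CARD16 as a percentage of the joint counts of CASP1 and CARD16 in each library (vertical axes), by group. Points are libraries; the ratio lies between 0.651 and 1.29 in IRF2KO libraries, all below the others, and the CARD16 share is 0 in all 3 IRF2KO libraries.

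The map of the cluster was checked for a change that ran beyond it. Outside the 6 genes, 8 genes of the table start within 1.5 Mb of the cluster on chromosome 11. Of these, PDGFD, DDI1, CASP12 and GRIA4 had 0 counts in all 9 libraries. MSANTD4, KBTBD3, AASDHPPT and GUCY1A2 were tested. The log2 fold changes in IRF2KO against WT were 0.03 ± 0.17 for MSANTD4, -0.46 ± 0.23 for KBTBD3, -0.36 ± 0.18 for AASDHPPT and 0.05 ± 0.22 for GUCY1A2. None of the 4 was called in any of the 3 comparisons by edgeR, DESeq2 or limma-voom, and 0 had an unadjusted edgeR p under 0.05. With 0.417% of all tested genes called and 18.7% at that unadjusted p in IRF2KO against WT, 0 of 4 says little about the region. AASDHPPT, the most abundant, stood at 90.2 ± 19.8 CPM in IRF2KO libraries and 116 ± 23.5 CPM in WT libraries.

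**Figure D3:**
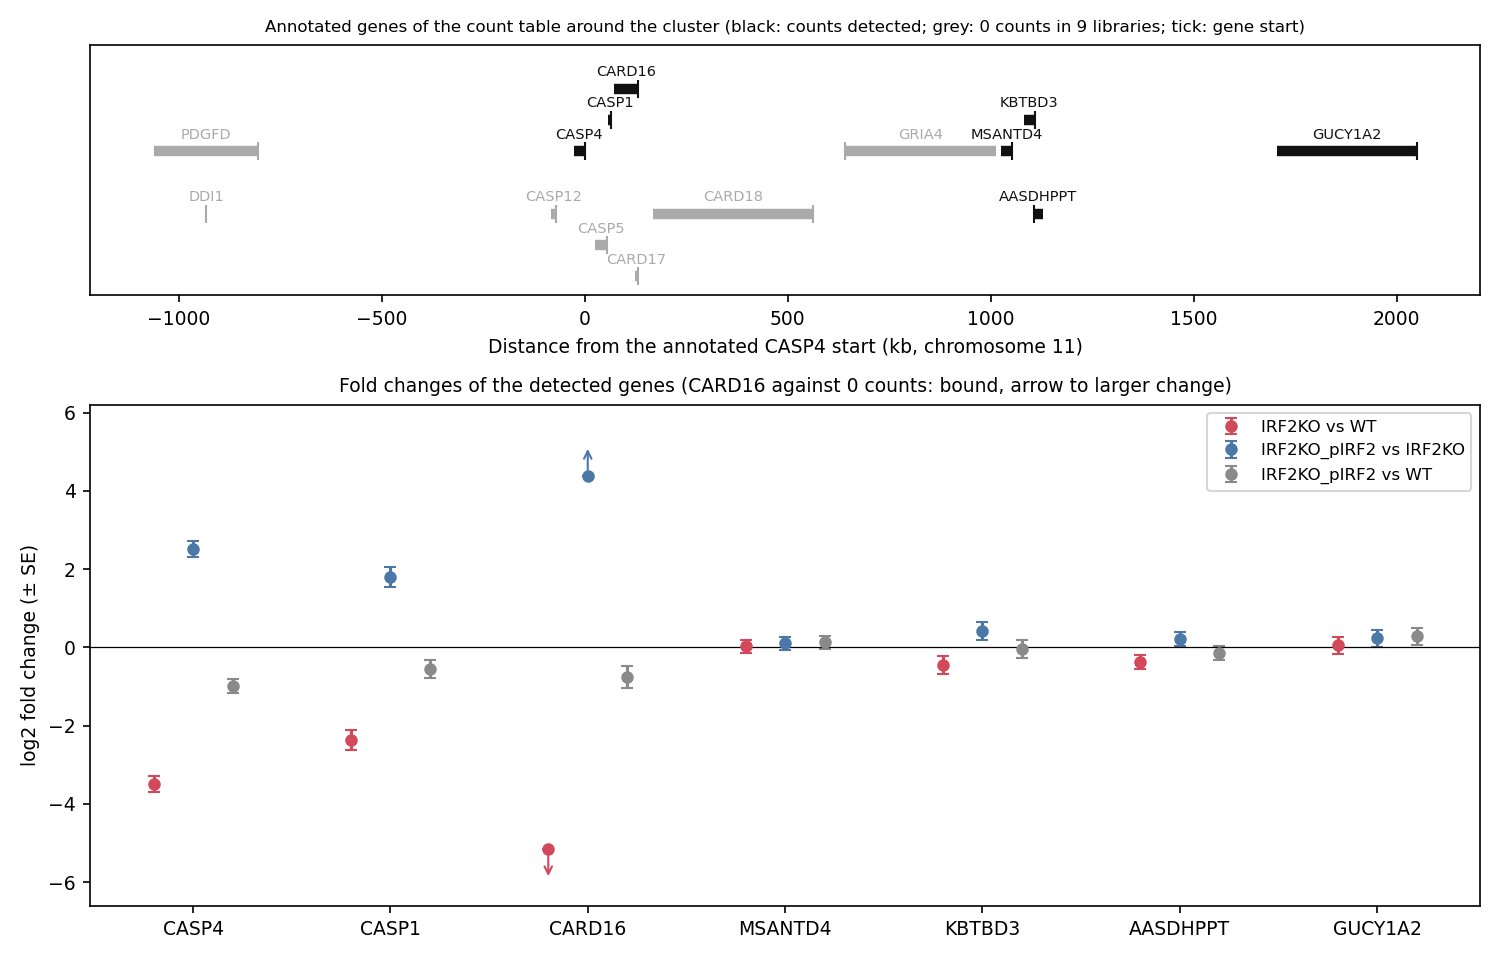
The cluster and its neighbours drawn to scale by distance from the annotated start of CASP4 in kilobases (horizontal axis), with the log2 fold changes of the tested genes. CASP4, CASP1 and CARD16 lie farther from 0 than the 4 tested neighbours in IRF2KO against WT and in IRF2KO_pIRF2 against IRF2KO, and CARD16 is marked at its bound because all IRF2KO libraries are at 0.

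CASP4 took a different place among the caspases in each group. Levels of different genes were compared as CPM per kilobase of the longest annotated coding transcript. CASP4 averaged 6.24 ± 0.626 CPM per kilobase in libraries labelled IRF2KO_pIRF2, 1.10 ± 0.271 in IRF2KO libraries and 12.4 ± 2.13 in WT libraries, which placed it 4th, 7th and 3rd among the 7 caspases compared here. CASP1 averaged 4.44 ± 0.4995, 1.27 ± 0.540 and 6.50 ± 0.444 CPM per kilobase in the same groups and was 5th, 6th and 5th. In IRF2KO libraries CASP4 and CASP1 did not differ beyond their spread. In WT libraries CASP4 did not differ beyond its spread from the gene next above it in the order, CASP6 (13.4 ± 2.15). With all annotated exon bases as the length, a choice made after seeing the data, CASP4 was 6th, 7th and 3rd and CASP1 5th, 6th and 4th. CASP2 was 1st in every group (53.1 ± 1.05, 49.97 ± 1.28 and 48.9 ± 0.419 CPM per kilobase). CARD16 averaged 1.66 ± 0.552 CPM per kilobase in the labelled libraries, 0 in IRF2KO libraries and 2.82 ± 0.382 in WT libraries.

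**Figure D4:**
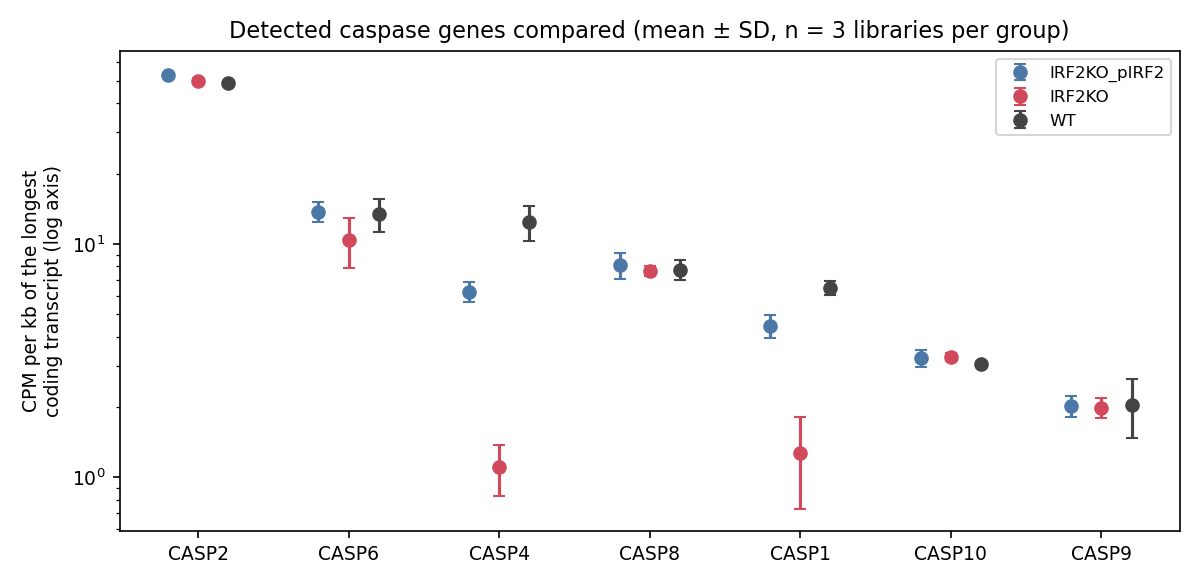
Mean level of the 7 caspases compared here in CPM per kilobase of the longest coding transcript (log axis), with SD (n = 3), in libraries labelled IRF2KO_pIRF2, IRF2KO and WT. CASP4 lies at 6.24, 1.10 and 12.4 in these groups, while CASP2 lies at 53.1, 49.97 and 48.9.

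Other caspases and caspase partners were counted in a list of 8 genes, which does not hold every caspase. CASP14 had 0 counts in all 9 libraries and 7 genes were tested. None of these 7 was called in any of the 3 comparisons by edgeR, DESeq2 or limma-voom, and 1, 0 and 0 had an unadjusted edgeR p under 0.05 in IRF2KO against WT, IRF2KO_pIRF2 against IRF2KO and IRF2KO_pIRF2 against WT. Over all tested genes edgeR called 0.417%, 0.365% and 0.0781% in these comparisons, and 18.7%, 11.2% and 3.92% had such an unadjusted p, so a count of 0 in so short a list says little. CASP8, the initiator of the death receptor route, stood at 22.5 ± 1.11 CPM in IRF2KO and 22.7 ± 2.24 CPM in WT (SD, n = 3 each), with a log2 fold change of -0.01 ± 0.14 SE. CASP9, the initiator of the mitochondrial route, stood at 8.87 ± 0.883 CPM in IRF2KO and 9.14 ± 2.57 CPM in WT (-0.04 ± 0.20). The median log2 fold change of the 7 tested genes was -0.04 in IRF2KO against WT, beside -0.01 over all tested genes, and 0.09 beside 0.00 in IRF2KO_pIRF2 against IRF2KO.

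The sensors, adaptors, substrates and products of the pathway were counted in a list of 38 genes outside the cluster, of which 27 were tested and 3 had 0 counts in all libraries. In IRF2KO against WT 1 fell and 0 rose, beside 0.417% of all tested genes called, and DESeq2 called 2 and limma-voom 1. An unadjusted edgeR p under 0.05 was found for 9 of the 27, beside 18.7% of all tested genes. The gene that fell was GBP3, a guanylate-binding protein (GBP) of the interferon-induced family whose members can coat bacteria, at 0.109 ± 0.0566 CPM in IRF2KO and 1.502 ± 0.662 CPM in WT (-3.72 ± 0.49, edgeR adjusted p = 0.0033). Its mean in IRF2KO lay below the limit of 3 counts per library (0.152 to 0.17 CPM), so the size of this fall is uncertain. In IRF2KO_pIRF2 against IRF2KO and against WT 0 of 27 were called by edgeR, DESeq2 or limma-voom, and 6 had an unadjusted edgeR p under 0.05 in each, beside 11.2% of all tested genes against IRF2KO and 3.92% against WT. GSDMD, which encodes gasdermin D and is the shared substrate of CASP4 and CASP1, stood at 24.5 ± 7.12 CPM in IRF2KO and 20.3 ± 4.44 CPM in WT (0.28 ± 0.21). The adaptor PYCARD stood at 70.2 ± 6.78 CPM in IRF2KO and 65.6 ± 9.37 CPM in WT (0.10 ± 0.13), and the sensor NLRP3 at 12.4 ± 0.844 and 13 ± 2.39 CPM (-0.07 ± 0.16). The cytokine substrates of CASP1 had log2 fold changes of 0.06 ± 0.19 (IL1B) and -0.47 ± 0.17 (IL18), and none of these 5 passed the test. The list median was -0.08 in IRF2KO against WT, 0.11 in IRF2KO_pIRF2 against IRF2KO and -0.03 in IRF2KO_pIRF2 against WT. Of 18 other genes whose products carry a CARD, 15 were tested and 0 were called in any comparison by edgeR, DESeq2 or limma-voom, with 1, 0 and 0 at an unadjusted edgeR p under 0.05 in IRF2KO against WT, IRF2KO_pIRF2 against IRF2KO and IRF2KO_pIRF2 against WT. The shares over all tested genes are those given for the other caspases, and at 0.417%, 0.365% and 0.0781% called, 0 of 15 is no result about these genes.

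The genes whose profile over the 9 libraries was most like that of CASP4 were found among 11014 tested genes with at least 1 CPM in the highest group, by the root mean square difference of log2 CPM after each gene was centred on its own mean. They were PSMB9 (0.162), SAMD9 (0.317), PARP14 (0.339), GBP3 (0.417), IFIH1 (0.453) and ERAP2 (0.468), where the median gene had 1.47. The places of GBP3 and ERAP2 rest on IRF2KO values near the limit of detection (means of 0.109 and 0.147 CPM) and near the 0.1 CPM added before taking logs. PSMB9, a catalytic subunit of the immunoproteasome, averaged 9.55 ± 0.941 CPM in libraries labelled IRF2KO_pIRF2, 1.44 ± 0.265 CPM in IRF2KO libraries and 17.4 ± 2.41 CPM in WT libraries. CASP1 came 8th in likeness to CASP4 (0.499) and CARD16 11th (0.543). The genes most like CASP1 were IFIH1 (0.210), DDX60 (0.275), PARP14 (0.426), FAM111A (0.442), UBE2L6 (0.451) and BTN3A1 (0.453), with a median of 1.08 over all candidates. IFIH1, a cytosolic sensor of double-stranded RNA, averaged 10.2 ± 0.656 CPM in the labelled libraries, 3.10 ± 0.755 CPM in IRF2KO libraries and 17.0 ± 2.82 CPM in WT libraries. CASP4 came 14th for CASP1 and CARD16 2247th. The values of CARD16 in IRF2KO libraries were set by the 0.1 CPM added before taking logs. Both ranks of CARD16 therefore depend on that offset, and other offsets were not tested. A likeness over these 9 libraries is mostly a likeness of the 3 group levels.

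**Figure D5:**
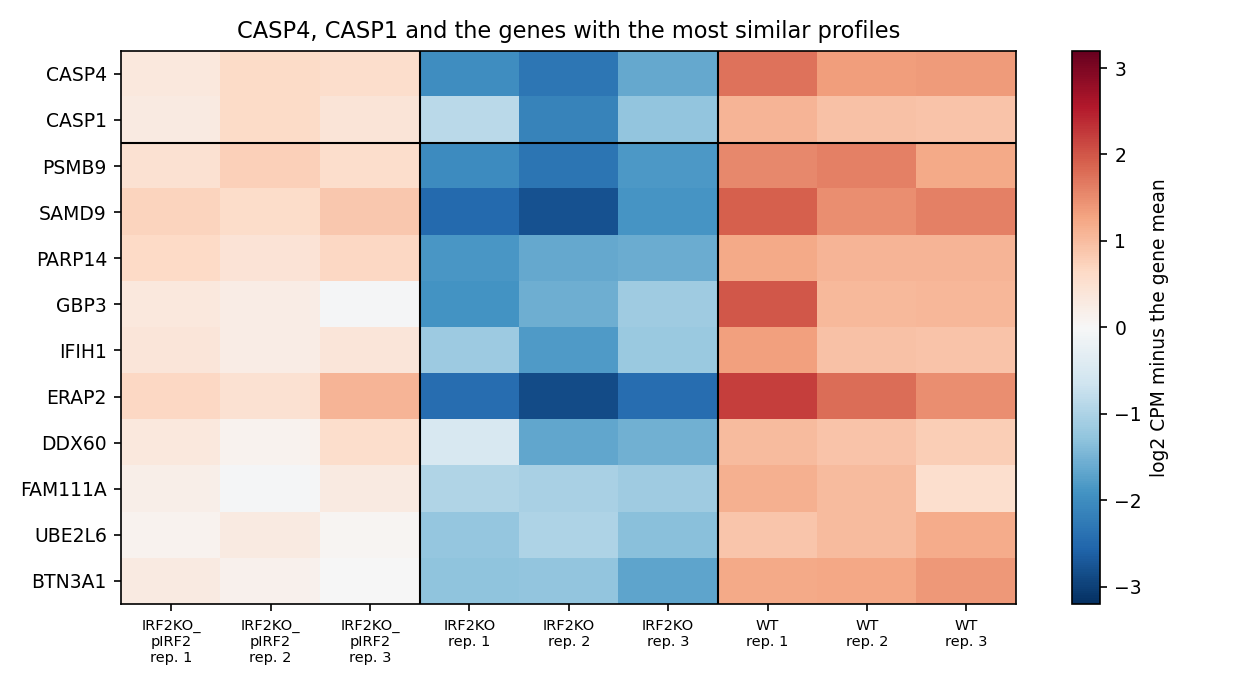
Centred log2 CPM of CASP4, CASP1 and the genes most like either of them in each of the 9 libraries (columns, grouped as IRF2KO_pIRF2, IRF2KO and WT). In every gene the IRF2KO libraries are low and the WT libraries high, with the libraries labelled IRF2KO_pIRF2 between.

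Promoters were read for the letters that interferon regulatory factors, the family of IRF2, are known to bind. They are RefSeq windows on GRCh38.p14, from 250 bases before to 50 bases after the start annotated there (position 0). Of the 6 genes CASP4 and CASP5 were matched. The CASP4 window lies inside the GENCODE span given above and does not reach the GENCODE start of the gene. The CASP5 window does cover the GENCODE start of CASP5. Searched on both strands were the core of the interferon-stimulated response element (GAAA, any 2 bases, GAAA), called the long core here, and the short core (AA, any 2 bases, GAAA), which every long core contains. Matches are in capitals.
CASP4 promoter, chr11:104968525-104968824, minus strand: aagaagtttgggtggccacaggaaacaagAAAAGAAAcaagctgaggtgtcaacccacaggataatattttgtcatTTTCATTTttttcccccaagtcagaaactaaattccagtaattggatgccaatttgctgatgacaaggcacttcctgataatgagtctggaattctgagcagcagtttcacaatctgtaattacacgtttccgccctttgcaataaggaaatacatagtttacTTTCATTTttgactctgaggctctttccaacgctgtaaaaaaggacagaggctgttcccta
CASP5 promoter, chr11:105023119-105023418, minus strand: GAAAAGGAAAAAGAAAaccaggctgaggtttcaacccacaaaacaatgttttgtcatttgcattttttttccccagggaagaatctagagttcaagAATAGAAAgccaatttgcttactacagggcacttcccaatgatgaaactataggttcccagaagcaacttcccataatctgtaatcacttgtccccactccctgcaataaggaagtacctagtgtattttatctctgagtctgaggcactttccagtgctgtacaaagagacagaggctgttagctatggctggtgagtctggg
The CASP4 window held the short core or its reverse complement 3 times, starting at -221, -174 and -11, and the long core 0 times. The CASP5 window held the long core 2 times, at -250 and -244, and the short core 3 times, at -248, -242 and -154, the first 2 of which lie inside the longer matches. The windows of these neighbours were 67.2% identical. Of 35116 RefSeq promoter windows, 3.57% held the long core and 22.8% held the short core. Among the 10 genes named above for their likeness to CASP4 or CASP1, 9 were matched to a window and 7 of these held the long core. The others were PSMB9, the gene most like CASP4, UBE2L6 and BTN3A1, which had no window or no long core in it. For each of the 7, 1 match is shown with 10 bases to each side (DDX60 held 2 and IFIH1 3), in the sense of the gene and with the long core or its reverse complement in capitals.
DDX60, chr4:168318821-168318850, minus strand: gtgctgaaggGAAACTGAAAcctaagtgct
ERAP2, chr5:96876460-96876489, plus strand: tcttagaacaGAAAGTGAAAgcaaaagtaa
FAM111A, chr11:59142876-59142905, plus strand: actaggatgcTTTCGCTTTCgctctcgctt
GBP3, chr1:89022845-89022874, minus strand: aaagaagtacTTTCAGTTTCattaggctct
IFIH1, chr2:162318824-162318853, minus strand: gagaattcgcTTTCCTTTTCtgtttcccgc
PARP14, chr3:122680800-122680829, plus strand: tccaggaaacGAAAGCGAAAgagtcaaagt
SAMD9, chr7:93118096-93118125, minus strand: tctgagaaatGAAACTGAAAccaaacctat
A match is a description of the letters, and binding was not measured here. The genes named for likeness were picked by their profiles, and the shares cover all RefSeq windows, not the tested genes alone. No enrichment was tested. Of the cluster only the windows of CASP4 and CASP5 were read, and CASP5 was not detected. Whether a match bears on any level was not tested.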

How the data were processed

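The table deposited by the authors holds unnormalised read counts by gene, with a column for each of the 9 libraries. Per the labels' protocols, RNA extraction used a Macherey Nagel kit and library preparation a SENSE mRNA kit of Lexogen. Per the submitters' processing notes, HTSeq 0.9.1, TopHat2 2.1.1, Bowtie2 2.3.3, bedtools and SAMtools were used with hg38. What each did, the gene models, strandedness and the fate of ambiguous reads are not given in the sources consulted, so counts of near-identical genes such as CASP1 and CARD16 may be divided in ways that cannot be seen.

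Identifiers were matched to GENCODE 29 (20012 of 20265). Genes that passed filterByExpr were tested after TMM scaling by the edgeR 4.0.16 quasi-likelihood test (R 4.3.3), in 1 fit of all 9 libraries without covariates, with p-values adjusted by the Benjamini-Hochberg method over 11517 genes and a threshold of 0.05. Levels are TMM-scaled CPM with SD, and log2 fold changes carry their SE. Where a group had 0 counts, the fold is a bound against 3 counts over the group. It takes the counts of the other group as exact and leaves out the spread between libraries. Ratios and shares per library (0.5 counts added to each gene in log2 ratios) were compared by exact permutation with SciPy 1.17.1. On simulated counts for IRF2KO against WT with 11448 genes tested, 86% of genes changed 2-fold and 100% of those changed 4-fold were recovered. The changed genes were drawn only from genes above a minimum mean count, so this recovery does not cover genes of low counts. In the same simulation 6 unchanged genes were called. Alternatives were DESeq2 1.42.0, limma-voom (limma 3.58.1), DESeq2-type size factors, no filter, only the groups compared, the mitochondrial share as a term, a replicate block, CASP1 and CARD16 summed, and leaving out libraries.

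Named were the 6 genes, IRF2, the list genes that passed the test or are central to the pathway, the tested neighbours within 1.5 Mb, and the 6 genes most like CASP4 and the 6 most like CASP1. Likeness was computed from log2(CPM + 0.1) centred per gene. The members, the lists and this rule were chosen with earlier results of these data known. Promoters are from RefSeq on GRCh38.p14, and exons from GENCODE 29 transcripts. A few genes are not reported on here, and the list and ranking of other caspases leave them out.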

Additional observations from a re-analysis of the deposited data

How the results depend on the processing

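In IRF2KO against WT, all 3 tested genes of the cluster were called under each of 17 alternatives, with log2 fold changes of -3.69 to -3.18 for CASP4 and -2.69 to -2.004 for CASP1. In IRF2KO_pIRF2 against IRF2KO 2 or 3 were called, and CASP1 was the one lost. In IRF2KO_pIRF2 against WT 0 members were called, but 1 (CASP4) with DESeq2, no filter, only the 2 groups in the fit, without both end libraries, or without IRF2KO replicate 2, so that leaving out single libraries gave 0 to 1. Over all genes, 48 calls in IRF2KO against WT became 115 with DESeq2 and 31 with only the 2 groups, and 34 to 49 when single libraries were left out. The 42 calls in IRF2KO_pIRF2 against IRF2KO became 64 with DESeq2 and 26 to 47 when single libraries were left out. The 9 calls in IRF2KO_pIRF2 against WT became 38 with DESeq2, 18 with no filter, 16 with only the 2 groups, 27 without both end libraries and 3 to 25 when single libraries were left out, with 25 without IRF2KO replicate 2 and 3 without WT replicate 2. The cause of these moves was not tested. The difference in the CARD16 share between IRF2KO_pIRF2 and WT was -1.56 percentage points and ranged from -3.52 to 0.013 when single libraries were left out, the last without replicate 2 labelled IRF2KO_pIRF2. Replicate numbers gave no clear sign of pairing between libraries. Deviations of same-numbered libraries from their group means correlated at -0.52 to 0.70, and 2 of 9 pairs were over 0.1. A library correlated best with its own number in 4 of 18 combinations with another group. With 3 libraries per group this check cannot exclude pairing, and the labels do not state any. With the replicate block the counts of calls were 39 in IRF2KO against WT, 36 in IRF2KO_pIRF2 against IRF2KO and 7 in IRF2KO_pIRF2 against WT, and no call of a cluster gene changed. Depth limits CARD16 most, with 18 to 43 counts per library where it was detected.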

Other observations

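The order of the groups differed between IRF2 and the cluster. Counts at IRF2 summed to 1107 in libraries labelled IRF2KO_pIRF2, 1378 in IRF2KO libraries and 2179 in WT libraries, while those at CASP4 summed to 864, 130 and 1463 in the same groups. IRF2 was lower in libraries labelled IRF2KO_pIRF2 than in WT (log2 fold change -1.22 ± 0.13 SE, edgeR quasi-likelihood test with Benjamini-Hochberg adjustment, adjusted p = 0.0029, lower in 3 of 3 libraries). IL18BP, whose product binds and neutralises interleukin-18, had a log2 fold change of 0.98 ± 0.30 in IRF2KO against WT and did not pass the test (2.65 ± 0.846 CPM in IRF2KO and 1.36 ± 0.284 CPM in WT, SD, n = 3 each; edgeR adjusted p = 0.26). IL18BP was chosen after its values were seen. AIM2, a sensor of cytosolic DNA that acts through PYCARD, had 8 counts over all 9 libraries and GBP1 had 5, too few to be tested.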
